A study of Homo sapiens with 6 samples.

Results

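The laminin and nidogen genes outside laminin-332 were followed as 10 genes: the laminin α-chain genes *LAMA1*, *LAMA2*, *LAMA4* and *LAMA5*, the β-chain genes *LAMB1* and *LAMB2*, the γ-chain genes *LAMC1* and *LAMC3*, and the nidogen genes *NID1* and *NID2*. They were chosen by gene symbol from the 60663 genes of the count table, and all 10 were found there. RNA was sequenced from CCD18Co, an established line of fibroblasts from normal human colon. Cells were transfected over 6 h with a lipid reagent and either a siRNA pool against *LTBP2* (siLTBP2) or a pool without a target (siNT), and were collected at 48 h. There were 3 libraries per group, numbered 1 to 3 in each. All libraries therefore carry a siRNA pool and the reagent, there were no cells without transfection, and the results rest on 1 cell line and 1 pool against *LTBP2*. Nothing states that libraries of a group came from separate cultures, so the p-values measure the spread between these samples only, which may be technical.

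Laminins are the trimeric proteins on which basement membranes are built, each made of one α, one β and one γ chain wound into a coiled coil. The α chain carries the globular end that integrins and α-dystroglycan bind. Many trimers join into a sheet through their short arms, and nidogens bind the γ1 chain and link this sheet to type IV collagen. In the gut, mesenchymal cells supply part of the laminin that underlies the epithelium and surrounds vessels and smooth muscle.

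*LAMC1*, which encodes the γ1 chain shared by most laminins, and *LAMA4*, the α4 chain of vessel and mesenchymal basement membranes, rose in siLTBP2 cells, by 1.65-fold and 1.59-fold. The 2 β-chain genes had log2 fold changes of 0.04 and 0.09, and none of the 9 members tested was lower at an adjusted p below 0.05. *LAMA2*, *LAMA5* and *NID1* had log2 fold changes of -0.46, -0.37 and -0.28 and did not pass. These genes did pass as lower in fits with the replicate number as a block or with no low-count filter. *LAMC1* and *LAMA4* were also the members whose siNT and siLTBP2 libraries did not overlap. Of the 10 genes, 9 had enough counts to be tested, 2 rose at an adjusted p below 0.05, 0 fell and 7 did not pass. At the same threshold 9.76% of the 16920 genes tested were higher and 9.51% were lower, 19.3% in all, and groups did not overlap for 37% of them. None of the members reached the stricter pair of thresholds, an adjusted p below 0.01 with a fold change above 2, which 2.57% of genes did. The median log2 fold change was 0.09 over the 9 tested members and -0.01 over all genes tested, and the median absolute log2 fold change was 0.46 and 0.23. All p-values per gene are from the quasi-likelihood test of edgeR with Benjamini-Hochberg adjustment over all genes tested, and fold changes are siLTBP2 over siNT.

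The libraries held 44663424 to 53576899 counts. *LTBP2*, the targeted gene, had 23.1 ± 1.89 CPM (counts scaled to the library's effective size after TMM normalisation, SD, n = 3) in siNT and 7.03 ± 1.39 CPM in siLTBP2 cells, 30.4% of the control level. Fibroblast markers summed to 9959 to 13222 CPM in siNT and 10098 to 14431 CPM in siLTBP2 libraries, and of the 10 markers *PDGFRB* was lower. Of 8 epithelial markers, 6 were under 1 CPM, *EPCAM* and *CDH1* among them, while the sum of the list went from 40.3 to 52.8 CPM in siNT to 85.9 to 99.4 CPM in siLTBP2 through *KRT18*, a keratin that rose from 36.4 to 80.8 CPM. Of 7 smooth muscle and pericyte markers, *ACTG2* and *CSPG4* rose and the sum went from 156 to 193 CPM to 264 to 291 CPM, with *DES*, *MYH11* and *CNN1* near 0. Of 6 endothelial markers 4 were under 1 CPM, *PECAM1* and *CDH5* included, and the sum, mostly *TEK*, was 67.5 to 83.6 CPM in siNT and 59.9 to 74.3 CPM in siLTBP2. Immune markers stayed below 1 CPM in sum. Of 5 glia markers 4 were under 1 CPM, with *SOX10* and *S100B* at 0. The part of these markers in the results was not tested, and in bulk RNA fewer cells of a type and less RNA per cell cannot be told apart.

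The sequence before the RefSeq start of 3 members is shown, for the 2 genes that rose and for *LAMB1*, the abundant β-chain gene that did not pass the test. RefSeq promoter windows (build GRCh38.p14, 300 bases, from 250 before the start to 50 after it) were matched for 8 of the 10 genes, all but *LAMA1* and *LAMC3*. Only stretches of the 250 bases before the start without annotated exons are printed, 5′ to 3′ on the gene's strand. Capitals mark the GC box, GGGCGG on either strand, with overlapping copies counted separately.
LAMC1, chr1:183023170-183023419, plus strand: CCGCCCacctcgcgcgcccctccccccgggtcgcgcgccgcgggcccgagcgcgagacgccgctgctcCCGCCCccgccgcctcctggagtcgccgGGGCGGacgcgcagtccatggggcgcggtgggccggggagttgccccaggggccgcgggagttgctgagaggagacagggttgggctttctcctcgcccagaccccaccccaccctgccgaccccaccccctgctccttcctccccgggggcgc
LAMB1, chr7:108003214-108003411, minus strand: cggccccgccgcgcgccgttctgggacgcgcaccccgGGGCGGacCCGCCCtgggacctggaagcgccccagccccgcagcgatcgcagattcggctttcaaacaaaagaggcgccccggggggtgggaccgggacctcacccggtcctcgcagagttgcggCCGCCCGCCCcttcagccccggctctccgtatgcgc
LAMA4, chr6:112254723-112254785, minus strand: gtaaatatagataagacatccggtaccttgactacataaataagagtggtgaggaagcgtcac
The stretch before *LAMC1* has 79.6% G and C with 3 GC boxes, and that before *LAMB1* 75.3% with 4. The shorter stretch before *LAMA4* has 39.7% G and C and no GC box, and annotated exons cover the other 187 of the 250 bases before its RefSeq start. That start lies 372 bases downstream of the start of the GENCODE gene model, so this stretch is inside the gene as GENCODE draws it, outside its exons. Across the 300-base windows of the 8 matched members, 6 hold a GC box, and *LAMA2* and *LAMA4* hold none. It occurs in 45.0% of the 35116 promoter windows of the table. G and C content ran from 51.3% for *LAMA4* to 82.7% for *LAMA5*, against a median of 58.7% for all windows.

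The γ1 gene *LAMC1* (GRCh38 chr1:183023420-183145592, 28 exons in the canonical transcript) gave nearly all γ-chain transcripts in these cells. It stood at 459, 390 and 420 CPM in siNT libraries 1 to 3 and at 781, 646 and 666 CPM in siLTBP2 libraries 1 to 3. Every siLTBP2 library was above every siNT library. The mean went from 423 ± 34.8 to 698 ± 72.8 CPM (SD, n = 3), a log2 fold change of 0.72 with a standard error of 0.11 and a 95% interval of 0.48 to 0.96 (edgeR, adjusted p = 0.0012). By p-value it was number 526 of the genes tested. *LAMC3*, the γ3 chain of nerve and retina, had 5, 0 and 1 reads in siNT and 0, 1 and 0 reads in siLTBP2 libraries, too few to test. In summed γ-chain level per kilobase, *LAMC1* made up 99.6% in siNT and 99.3% in siLTBP2 libraries.

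Among the α chains, *LAMA4* (GRCh38 chr6:112107931-112254939, 39 exons) was the one that rose. It had 75.0, 74.6 and 59.0 CPM in the siNT libraries and 131, 114 and 85.5 CPM in the siLTBP2 libraries. The lowest siLTBP2 library lay above the highest siNT library, and library 3 was the lowest of its group on both sides. Means were 69.5 ± 9.16 and 110.4 ± 23.2 CPM, a log2 fold change of 0.67 with a standard error of 0.15 and a 95% interval of 0.34 to 1.00 (edgeR, adjusted p = 0.011).

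*LAMA5* (GRCh38 chr20:62307955-62367312, 80 exons), the α5 chain of most adult epithelial and vessel basement membranes, had 147, 154 and 84.3 CPM in siNT and 128, 127 and 44.2 CPM in siLTBP2 libraries. Library 3 was far below the other libraries of its group in both groups, and the groups overlapped. The log2 fold change was -0.37 with a standard error of 0.34 (edgeR, adjusted p = 0.51), and its 95% interval, -1.12 to 0.39, takes in changes of either direction. Over the 6 fits that each left out a library it ran from -0.59 (without siNT library 3) to -0.01 (without siLTBP2 library 3), with adjusted p-values of 0.26 to 0.99.

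*LAMA2* (GRCh38 chr6:128883138-129516566, 65 exons), the α2 chain of muscle and nerve, showed 61.2, 54.0 and 39.5 CPM in siNT and 45.5, 45.5 and 21.7 CPM in siLTBP2 libraries. Library 3 was again the lowest on both sides, and siNT library 3 lay inside the siLTBP2 range. The log2 fold change was -0.46 with a standard error of 0.25 and a 95% interval of -1.01 to 0.09 (edgeR, adjusted p = 0.24). Without siLTBP2 library 3 it shrank to -0.18.

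*LAMA1* (GRCh38 chr18:6941742-7117797, 63 exons), the α1 chain of the embryo, was present at a trace, with 26 to 132 reads in siNT and 32 to 181 reads in siLTBP2 libraries. Here library 3 was the highest of both groups, at 2.45 and 3.43 CPM against 0.53 to 1.54 CPM in the other 4. The log2 fold change of 0.62 had a standard error of 0.59 and an interval of -0.68 to 1.92 (edgeR, adjusted p = 0.52). It was 1.61 without siNT library 3 and -0.13 without siLTBP2 library 3, so single libraries set both its size and its direction.

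**Figure D1:**
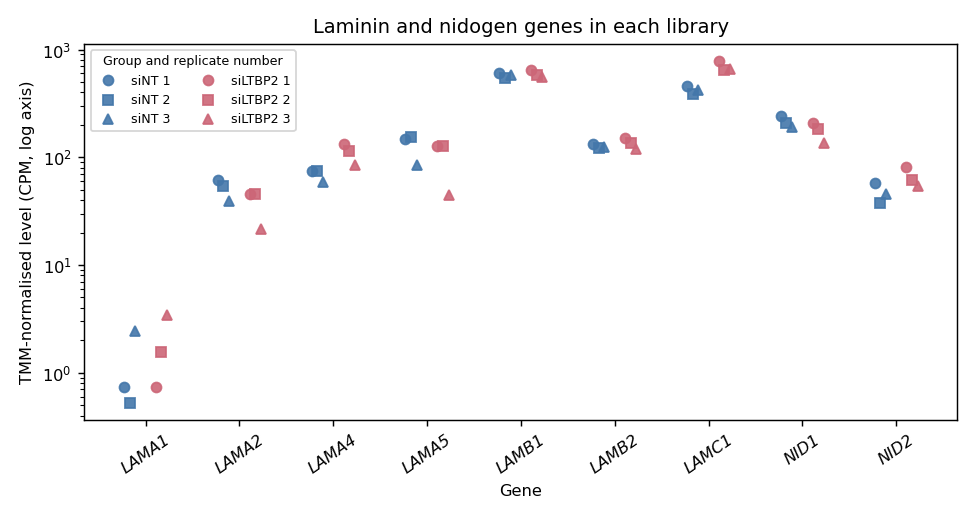
TMM-normalised level in CPM (log axis) of the 9 tested genes in each library, with blue for siNT, red for siLTBP2 and a marker shape per replicate number. The red points of *LAMC1* and *LAMA4* lie above all blue points, while the triangles (library 3) are the lowest of both groups for *LAMA2*, *LAMA4*, *LAMA5* and *NID1* and the highest for *LAMA1*.

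Neither β-chain gene passed the test. *LAMB1* (GRCh38 chr7:107923799-108003213, 34 exons), the β1 partner in most γ1 laminins, had 610.0, 539 and 581 CPM in siNT and 642, 581 and 561 CPM in siLTBP2 libraries, and the groups overlapped. Its log2 fold change of 0.04 had a standard error of 0.10, and the 95% interval of -0.17 to 0.26 leaves out a change as large as that of *LAMC1* (edgeR, adjusted p = 0.79). *LAMB2* (GRCh38 chr3:49121114-49133118, 32 exons), the β2 chain of synapse, kidney and vessel wall, had 134, 121 and 126 CPM in siNT and 149.8, 137 and 118 CPM in siLTBP2 libraries. The highest and the lowest of these 6 values were both in the siLTBP2 group. The log2 fold change was 0.09 with a standard error of 0.10 and an interval of -0.13 to 0.31 (edgeR, adjusted p = 0.59).

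The nidogens had fold changes of opposite sign, and neither passed the test. *NID1* (GRCh38 chr1:235975830-236065109, 20 exons), which encodes the more abundant linker, had 243, 206 and 189 CPM in siNT and 206, 183 and 137 CPM in siLTBP2 libraries. The groups overlapped, and its log2 fold change was -0.28 with a standard error of 0.15 and an interval of -0.60 to 0.04 (edgeR, adjusted p = 0.21). It was -0.18 without siNT library 1 and -0.13 without siLTBP2 library 3, and none of the 6 fits that each left out a library passed (lowest adjusted p = 0.086). *NID2* (GRCh38 chr14:52004809-52069059, 22 exons) had 57.3, 37.6 and 45.9 CPM in siNT and 80.7, 60.9 and 53.6 CPM in siLTBP2 libraries. One siLTBP2 library, number 3, lay below siNT library 1, and the other 2 lay above all siNT libraries. Its log2 fold change of 0.47 had a standard error of 0.17 and an interval of 0.09 to 0.85 (edgeR, adjusted p = 0.079). Over the 6 fits that each left out a library its adjusted p ran from 0.020 to 0.26, and it passed without siNT library 1 (log2 fold change 0.63) or without siLTBP2 library 3 (0.60). Without siLTBP2 library 1 its log2 fold change was 0.29, the lowest of these fits. On the opposite strand, exons of *RTRAF* cover 30.7% of the exon bases of *NID2*, and no source used here says whether strand was used in the counting, so the counts of *NID2* are uncertain to that extent. *RTRAF* itself had a log2 fold change of 0.07 (edgeR, adjusted p = 0.60).

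**Figure D2:**
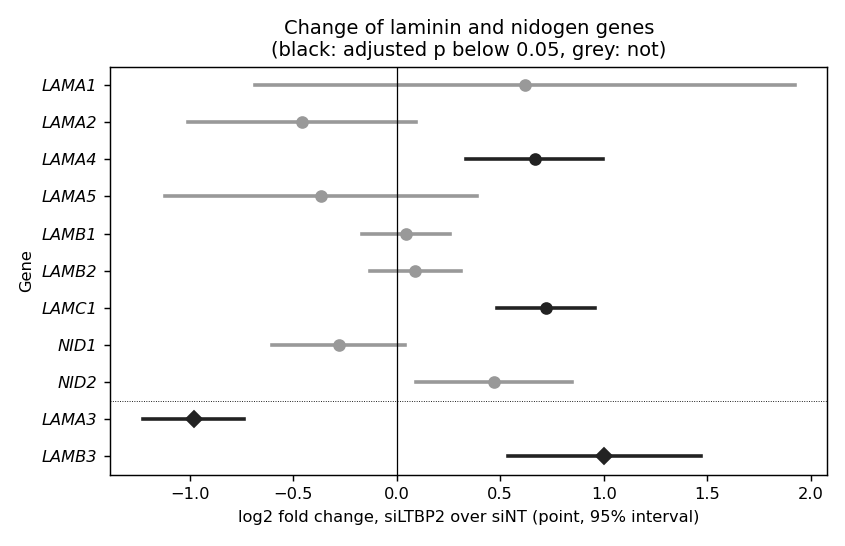
Log2 fold change of siLTBP2 over siNT (x axis, point) with its 95% interval (line) for the 9 tested genes (circles) and, under the dotted line, for *LAMA3* and *LAMB3* of laminin-332 (diamonds). Black marks an adjusted p below 0.05 in edgeR: *LAMA4* at 0.67 and *LAMC1* at 0.72 among the members, and both *LAMA3* at -0.98 and *LAMB3* at 1.00.

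Other laminin genes give the comparison with laminin-332, the trimer that anchors epithelial cells at hemidesmosomes. *LAMA3* fell from 22.6 to 11.4 CPM (log2 fold change -0.98, edgeR adjusted p = 2.5e-04), whereas *LAMB3* rose from 12.2 to 24.5 CPM (1.00, adjusted p = 0.0079). *LAMB4* did not pass (log2 fold change 0.65, adjusted p = 0.38). So of the 5 α-chain genes *LAMA4* rose and *LAMA3* fell, and of the 4 β-chain genes *LAMB3* rose.

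Levels of different genes were compared per kilobase of exon, with the union of annotated exons as the length. In siNT cells *LAMC1* came first with 50.1 CPM per kilobase, followed by *NID1* with 36.6, *LAMB1* with 31.0 and *LAMB2* with 18.5. Then came *LAMA5* with 8.99, *NID2* with 7.55 and *LAMA4* with 5.80, and below these *LAMA2* with 1.95, *LAMA1* with 0.078 and *LAMC3* with 0.0047. The library values of *NID1* and *LAMB1*, of *LAMA5* and *NID2*, and of *NID2* and *LAMA4* overlapped, and those of the other neighbours in this order did not. In siLTBP2 cells *LAMC1* stood at 82.6 and the order behind it was *LAMB1* at 32.0, *NID1* at 30.1, *LAMB2* at 19.6, *NID2* at 10.5, *LAMA4* at 9.21, *LAMA5* at 6.97, *LAMA2* at 1.42, *LAMA1* at 0.12 and *LAMC3* at 0.00079 CPM per kilobase. There the neighbours *LAMB1* and *NID1*, *NID2* and *LAMA4*, and *LAMA4* and *LAMA5* overlapped. By the mean, *LAMA4* thus came behind *LAMA5* in siNT and ahead of it in siLTBP2 cells, though their library values overlapped in both groups. Within libraries, the ratio of *LAMA4* to *LAMA5* was 0.58 to 0.83 in siNT and 1.07 to 2.31 in siLTBP2. With canonical transcript lengths this ratio was 1.11 in siNT library 3, so the order in that library depends on the length used. By the siNT mean *LAMA4* stayed behind *LAMA5* with those lengths, at 9.62 against 11.2 CPM per kilobase.

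The length used matters most for *LAMB1*, whose exon union of 18592 bases is far longer than its canonical transcript of 5650 bases. Per kilobase of canonical transcript, *LAMB1* came first in both groups with 102 CPM per kilobase in siNT and 105 in siLTBP2, ahead of *LAMC1* with 53.4 and 88.0. Which of *LAMB1* and *LAMC1* is the more abundant per length is therefore not settled by these counts, while the direction of each gene between the groups does not depend on length.

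**Figure D3:**
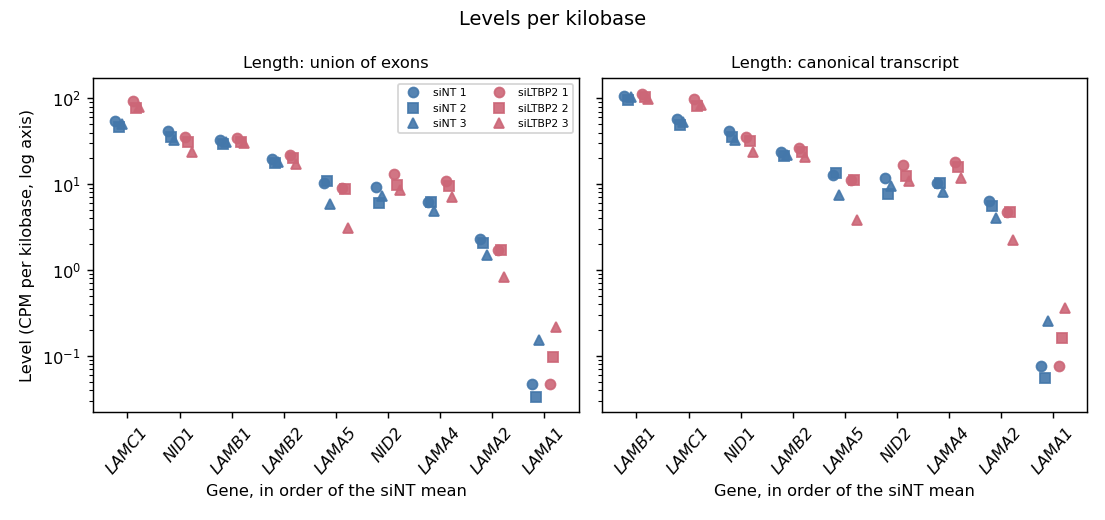
Level in CPM per kilobase (log axis) of the 9 tested genes in each library, ordered by the siNT mean, with the union of exons as length on the left and the canonical transcript on the right (blue siNT, red siLTBP2, marker shape by replicate number). *LAMC1* comes first on the left and *LAMB1* first on the right, and *LAMA1* lies far below the others in both.

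The makeup of each chain class was computed in every library as the share of each gene in the summed level per kilobase, and 13 shares were tested by two-sided exact permutation over the 6 libraries. With 3 against 3 libraries the smallest p possible is 0.1, which is 0.19 after adjustment over the 13 shares, so no share could pass. *LAMA4* made up 30.7, 30.0 and 35.2% of the α chains in siNT and 48.9, 45.3 and 59.1% in siLTBP2 libraries, a mean of 32.0 ± 2.79% against 51.1 ± 7.15% (SD, n = 3, exact p = 0.1). All siLTBP2 shares of *LAMA4* were above all siNT shares. *LAMA5* went from 48.2 ± 5.24% to 35.9 ± 8.99% (exact permutation, p = 0.1), with siNT library 3 and siLTBP2 library 2 both at 42.2%. The difference of -12.3 percentage points in the share of *LAMA5* became -7.14 without siLTBP2 library 3, and with canonical lengths the groups overlapped (exact p = 0.2). *LAMA2* went from 10.6 ± 0.77% to 7.56 ± 0.70% without overlap (exact p = 0.1), and *LAMA1* held 0.50% and 0.82% (exact p = 0.6). The summed α-chain level itself was 18.4 ± 3.80 CPM per kilobase in siNT and 18.5 ± 5.61 in siLTBP2 cells (exact p = 0.9).

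**Figure D4:**
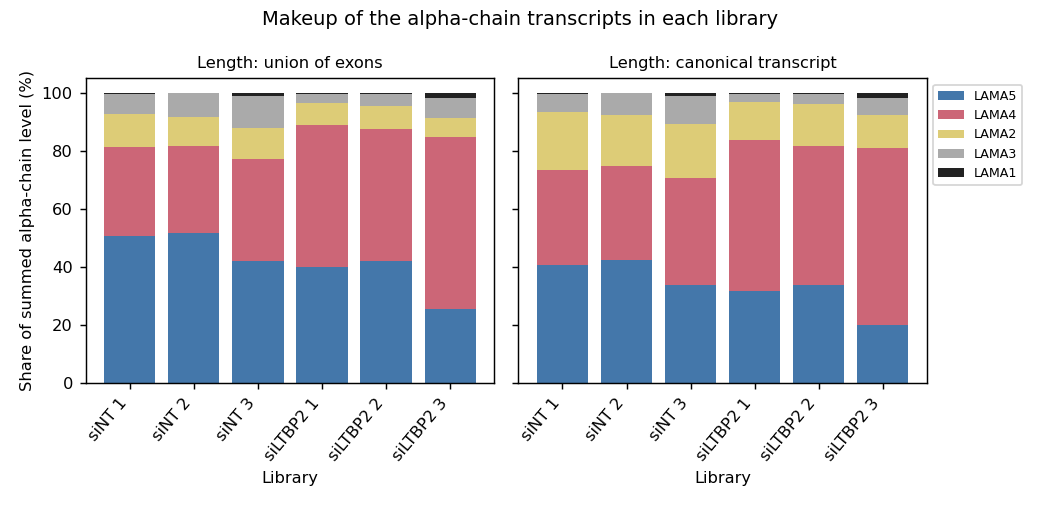
Share of each α-chain gene in the summed α-chain level per kilobase (y axis, %) in each library, with the union of exons as length on the left and the canonical transcript on the right. On the left *LAMA4* (red) fills 30.0 to 35.2% of the siNT bars and 45.3 to 59.1% of the siLTBP2 bars.

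In the β class, *LAMB1* made up 59.5 ± 0.54% in siNT and 56.2 ± 0.72% in siLTBP2 libraries, without overlap (exact permutation, p = 0.1). *LAMB2* held 35.4% and 34.4% (exact p = 0.6), and *LAMB3* went from 5.00% to 9.34%. *NID1* made up 81.9, 85.4 and 81.6% of the nidogen level in siNT and 73.2, 76.2 and 73.2% in siLTBP2 libraries, so the groups did not overlap (exact p = 0.1). Between classes, *LAMC1* was 1.01 ± 0.026 times the sum of *LAMB1* and *LAMB2* in siNT and 1.60 ± 0.091 times that sum in siLTBP2 cells (exact permutation, p = 0.1, the smallest possible). This ratio, chosen after the values were seen, was higher in each siLTBP2 library than in any siNT library, and with canonical lengths it was 0.43 and 0.68.

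Receptors of laminins and nidogens moved in both directions. Of 21 receptor genes 19 were tested, and 8 rose, 6 fell and 5 did not pass, with a median log2 fold change of 0.17. *ITGA6*, the α6 integrin subunit that binds laminins, rose from 114 ± 13.7 to 496 ± 26.9 CPM (log2 fold change 2.12). Its partner subunit *ITGB1* rose from 715 to 1335 CPM (0.90), and *ITGA3*, the α3 subunit of another laminin receptor, from 190.2 to 352 CPM (0.89). *SDC1*, a syndecan, rose from 80.7 to 160.1 CPM (0.99) and *PTPRF*, a receptor phosphatase, from 189 to 372 CPM (0.98). *ITGA2*, *ITGB3* and *MCAM* were the other 3 that rose.

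Among the receptors that fell, the tetraspanin *CD151*, which associates with laminin-binding integrins, went from 168 to 82.0 CPM (log2 fold change -1.04). *ITGA1*, a collagen and laminin receptor subunit, went from 109 to 77.9 CPM (-0.48), *SDC2* from 103 to 76.3 CPM (-0.43), *SV2A* from 91.7 to 63.1 CPM (-0.54) and *ITGAV* from 195 to 164 CPM (-0.25, edgeR adjusted p = 0.046). *ITGB4*, the hemidesmosome partner of α6, was below 1 CPM in both groups (log2 fold change -1.29). *DAG1*, the dystroglycan gene, had a log2 fold change of 0.17 (edgeR, adjusted p = 0.36).

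Of 30 other basement membrane genes 16 were tested, and 2 rose, 1 fell and 13 did not pass, with a median log2 fold change of 0.06. *COL4A1*, a type IV collagen chain, rose from 178 ± 31.1 to 261 ± 45.6 CPM (log2 fold change 0.55, edgeR adjusted p = 0.027), while *COL4A2*, transcribed from the same bidirectional promoter, went from 409.6 to 473 CPM and did not pass (0.21, adjusted p = 0.33). *AGRN*, a heparan sulphate proteoglycan that binds the laminin coiled coil, fell from 277 to 196 CPM (-0.50, adjusted p = 0.039). The third was *FRAS1*, at 0.30 and 0.88 CPM. *HSPG2*, the perlecan gene, did not pass (log2 fold change -0.34, adjusted p = 0.14).

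The dystrophin and dystroglycan complex, with the enzymes that build the laminin-binding sugar of α-dystroglycan, had 28 genes, of which 22 were tested. In this list 2 rose, 3 fell and 17 did not pass, with a median log2 fold change of -0.07. *SSPN*, sarcospan, rose from 9.74 to 18.0 CPM (0.89) and *SNTB1*, a syntrophin, from 17.3 to 26.8 CPM (0.63). *POMK*, the kinase needed for that sugar, fell from 121 to 74.3 CPM (-0.70) and *DTNA*, a dystrobrevin, from 5.90 to 3.80 CPM (-0.63).

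A list drawn up for the folding, modification and cleavage of laminins and nidogens held 21 genes. Among them are enzymes that act mainly on other proteins, such as the lysyl hydroxylases. Of the list 16 were tested, and 3 rose, 1 fell and 12 did not pass, with a median log2 fold change of 0.11. *MMP14*, a membrane-bound protease, rose from 427 ± 92.3 to 758 ± 45.6 CPM (0.83), *CTSL*, a cathepsin, from 72.5 to 125 CPM (0.79) and *PLOD2*, a lysyl hydroxylase, from 117 to 201 CPM (0.78). *FURIN*, a proprotein convertase, fell from 126 to 70.4 CPM (-0.84). The 9.76% and 9.51% of all genes that were higher and lower are the shares against which these 4 lists stand.

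**Figure D5:**
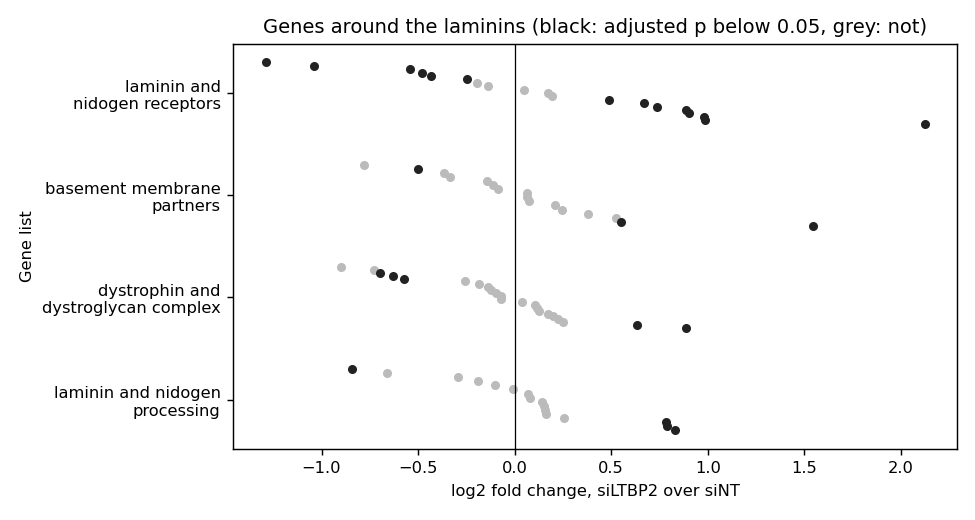
Log2 fold change of siLTBP2 over siNT (x axis) of each tested gene in the 4 lists (rows), 1 point per gene, black where the adjusted p in edgeR was below 0.05 and grey where it was not. The receptor row has black points on both sides, from *ITGB4* at -1.29 to *ITGA6* at 2.12, and the other rows are mostly grey.

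The genes whose pattern over the 6 libraries lay closest to that of *LAMC1*, by Euclidean distance between log2 CPM values centred per gene, were *C1QTNF2* (distance 0.13), *ERLIN2* (0.14) and *FN1* (0.14). *FN1*, the fibronectin gene, went from 1164 ± 137 to 1969 ± 152 CPM, a log2 fold change of 0.76 beside the 0.72 of *LAMC1*. *ERLIN2* had 0.69 and *C1QTNF2* 0.73. The likeness is a description over 6 libraries that share the 2 groups.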

How the data were processed

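Total RNA depleted of ribosomal RNA was sequenced from 6 libraries of CCD18Co fibroblasts, 3 siNT and 3 siLTBP2. The authors deposited raw counts per gene. Submitters' processing notes name STAR 2.7.1a, HTSeq 0.11.2 and GRCh38, and neither the use of strand in counting nor the Ensembl release is stated there. Of 60663 genes, 27067 had no count. Gene models were taken from GENCODE 44, which holds 60462 of the identifiers (95.7% of them with the same start; 9 of the 10 members, *NID2* excepted). Libraries held 44663424 to 53576899 counts. Precision is low for genes with few reads such as *LAMA1*, which had 26 to 181 reads per library and also varied widely within each group.

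The whole table was fitted in R 4.3.3 with the quasi-likelihood test of edgeR 4.0.16 after filterByExpr and TMM (two-sided, group as the single term), and 16920 genes were tested. The standard error of a log2 fold change was derived from it and the square root of the F statistic, and 95% intervals use the t quantile of the fit's degrees of freedom. CPM values are TMM-normalised. Shares and ratios per kilobase were compared by exact permutation.

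The members and gene lists were chosen with earlier results of these data known. All 10 members, *LTBP2* and the other laminin genes were named, as were, per list, up to 5 genes per direction with an adjusted p below 0.05 and a mean of at least 1 CPM, by size of change, and the 3 genes nearest to *LAMC1*. *ITGA2*, *ITGB3*, *MCAM*, *ITGB4*, *FRAS1*, *DAG1*, *COL4A2*, *HSPG2* and *RTRAF*, and the marker genes with values, were added after their values were seen. The values of some genes that the rule names are not reported here. Alternatives were the likelihood ratio test, DESeq2 1.42.0, scaling by RLE, by the upper quartile or by total counts, other filters, the replicate number as a block, leaving out each library, and canonical transcript length. Libraries of a group differed by more than sampling noise (chi-square per degree of freedom 24.6 to 48.1). Only the edgeR fit was tested on simulated counts.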

Additional observations from a re-analysis of the deposited data

How the results depend on the processing

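*LAMC1* and *LAMA4* kept their direction and their call under all 14 alternatives of the test, scaling, filter, block and left-out library, with log2 fold changes of 0.63 to 0.78 and 0.52 to 0.82 and adjusted p-values of at most 0.0078 and 0.042. Over the 9 tested members there were 126 such refits, of which 110 kept direction and side of the threshold, 13 newly passed it and 3 changed sign. With no low-count filter 3 members fell (*LAMA2*, *LAMA5* and *NID1*) and 680 of all genes were deregulated, not 434. *NID2* passed with the likelihood ratio test (adjusted p = 0.041), DESeq2 (0.031) and no filter (5.0e-04), within a range of 2.2e-05 to 0.26 over its alternatives. Why these calls moved was not tested.

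Replicate numbers are shared by the groups, and no source used here says whether same-numbered libraries were handled together. The main fit has no term for the number. Deviations from the group means correlated at 0.30, 0.08 and 0.43 for same-numbered libraries (different numbers: -0.39 to 0.10). Each library correlated best with its own number except siNT 2, and a shared replicate effect was not tested. Between same-numbered libraries, *LAMA4*, *LAMC1* and *NID2* were higher in siLTBP2 for all 3 numbers. *LAMA2*, *LAMA5* and *NID1* were lower for all 3. With the replicate block, 4 members rose (*LAMA1*, *LAMA4*, *LAMC1* and *NID2*) and 3 fell (*LAMA2* at -0.51, *LAMA5* at -0.46 and *NID1* at -0.29), beside 6131 of all genes called in place of 3261.

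Leaving out each library gave 2158 (without siLTBP2 library 2) to 2781 genes called in all, 2 to 3 members higher and none lower. The log2 fold change ran from -0.012 to 0.088 for *LAMB1* and from -0.13 to 1.61 for *LAMA1*. The share difference of *LAMA1* ran from -0.16 to 0.63 percentage points and that of *LAMA5* from -15.4 to -7.14 and that of *LAMB2* from -1.68 to 0.045, the latter being 0.00646 with canonical transcript lengths. With those lengths the siNT levels were 5.32 CPM per kilobase for *LAMA2*, 9.62 for *LAMA4*, 102 for *LAMB1*, 22.3 for *LAMB2* and 9.64 for *NID2*. The median log2 fold change of all genes was lowest with scaling by total counts, at -0.044.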

Other observations

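The word GCACCCA, which an earlier search of these data had brought up for 3′ UTRs, was looked up in the canonical transcripts of the 10 genes (GENCODE 44, sense strand). The 3′ UTR of 0 of the 10 held it, against 11.8% of 12311 genes. Length was not matched there, and the 3′ UTRs of the members had 112 (*LAMB2*) to 2802 bases (*LAMC1*). In coding sequence 7 of the 10 held the word, against 13.8% of 12484 genes. Of the 1106 genes with at least 3744 coding bases, the shortest among the members, 38.1% held it. This share sets a minimum length only. The other members have 4128 to 11088 coding bases, so length is not matched beyond that minimum. *LAMA2*, *LAMA5* and *NID1* held 2 copies each, *LAMA1*, *LAMB1*, *LAMC3* and *NID2* 1 copy, and *LAMA4*, *LAMB2* and *LAMC1* none. This is a description of 10 genes with no test. The sites of *LAMA5* and *NID1*, in coding exons on GRCh38, are shown with the word in capitals as examples of its surroundings.
NID1, chr1:236025977-236026005, minus strand: agccctgcccaGCACCCAgcagctctcgg
NID1, chr1:235977938-235977966, minus strand: caatggcggctGCACCCAcctatgcttgg
LAMA5, chr20:62338501-62338529, minus strand: caacttccaagGCACCCAttgtgagctct
LAMA5, chr20:62323807-62323835, minus strand: gcgaggcggccGCACCCAgtgcctctgca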
